A study of Mus musculus with 2 samples.

Results

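The genes described here encode the nuclear subunits of oxidative phosphorylation, cytochrome c and the complex I assembly factors whose names begin like those of subunits, measured in primary mouse myoblasts that were treated in parallel with vehicle or to delete Mll1. A probe set was taken as a member if the annotation of the array gave it 1 gene symbol and that symbol began with Nduf, Uqcr or Atp5, or with Cox followed by a digit from 4 to 8, or was Sdha, Sdhb, Sdhc, Sdhd or Cycs. This gave 117 probe sets of 90 genes, among 21789 probe sets with 1 symbol (19938 genes) and 35557 probe sets in all. The rule itself uses names and no expression value. Both cultures had the genotype labelled Rosa-CreER / MLL1 fl/fl. Their Mll1 alleles were floxed, and a Cre recombinase driven by the ubiquitous Rosa26 promoter could act on them once tamoxifen was bound. The control culture received 0.01% EtOH for 7 days and the Mll1 cKO culture received 500 nM 4-OHT (4-hydroxytamoxifen) in 0.01% EtOH for 7 days. Both were then kept for 3 days without drug or vehicle according to the sample labels, whereas the study's methods give a shorter washout. The cells came from hind limb muscle of young mice, were sorted for a satellite cell surface marker, and were grown with FGF (5 ng/ml) and serum (20% FBS). The 2 conditions are 4-OHT-treated and vehicle-treated cells of 1 genotype. An effect of 4-OHT or of active Cre therefore cannot be told apart from loss of Mll1. The strain was not found in the labels.

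RNA of each culture was hybridised to 1 Affymetrix MoGene 1.0 ST array, and the deposited values are log2 signals after RMA, a procedure that corrects background, equalises the arrays and summarises the probes of each probe set. All differences below are log2 signals of the Mll1 cKO array minus the control array. With 1 array per condition there is no replicate check, no test and no p-value, so the precision of every value is limited by the number of arrays. Kmt2a, the gene of MLL1, had log2 signals of 9.44 (control) and 9.66 (Mll1 cKO), but its probe set spans the transcript and checks nothing about the deletion. Over all named probe sets the median difference was -0.05 and 56.0% were lower in the Mll1 cKO array. Of 7 myoblast markers, such as Myod1 and Pax7, the control signals ran from 9.43 to 12.15, and 2 were higher and 5 lower in the Mll1 cKO array, with a median of -0.10.

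Oxidative phosphorylation takes place in the inner mitochondrial membrane. Complex I accepts electrons from NADH and complex II from succinate, and both pass them through ubiquinone to complex III, from there through cytochrome c to complex IV, and on to oxygen. Complexes I, III and IV pump protons, and complex V, the ATP synthase, lets them return while it makes ATP. Most subunits are encoded in the nucleus and a small set, which includes the catalytic subunits of complex IV, in the mitochondrial genome. Skeletal muscle, which depends on this pathway, replaces several widely expressed subunits of complex IV by isoforms of its own. NRF1, ETS factors such as GABPA, and YY1 are transcription factors known to act at many promoters of these genes.

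The promoters of 74 of the 90 members were listed in the RefSeq table for GRCm38.p6, as windows of 300 bases around the transcript start. The letters GCGCATGC (NRF1), CCGGAAG (ETS) and AAGATGGC (YY1) were looked for on both strands. A match to the ETS letters can run into a match to the YY1 letters, because the former end with the bases with which the latter begin. The NRF1 letters lay in 13 member promoters (17.6%) and in 3.05% of the 27025 genes with a window, or 4.29% of the 15563 such genes that are named on the array. The ETS letters lay in 18 member promoters (24.3%), against 9.93% of all genes and 13.6% of those on the array. The YY1 letters lay in 10 (13.5%), against 3.19% and 3.77%. At least 1 of the 3 motifs was present in 35 member promoters and none in 39, and no member promoter held all 3. The letters CAGCTG (E-box), which myogenic regulatory factors can bind and which were added after the values were seen, lay in 6 member promoters (8.11%), against 18.3% and 18.4%. The upstream 150 bases of 7 members are printed here. Cycs, Sdhb, Cox6a1, Cox6b1 and Uqcr11 were chosen as genes with a motif upstream of the start and a difference among the lower ones of their complex, and Cox6b2 and Cox8b as the only members over 2-fold. Capitals mark the NRF1 letters in Cycs and Sdhb, the ETS letters in Cox6a1, Cox6b1 and Uqcr11, and the E-box in Cox8b. The window of Cox6b2 holds none of the motifs. A match is a string of letters and not a bound site.
Cycs, chr6:50566570-50566719, minus strand: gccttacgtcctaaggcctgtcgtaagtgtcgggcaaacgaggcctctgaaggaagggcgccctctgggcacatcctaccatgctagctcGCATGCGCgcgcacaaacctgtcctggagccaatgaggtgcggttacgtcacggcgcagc
Sdhb, chr4:140961121-140961270, plus strand: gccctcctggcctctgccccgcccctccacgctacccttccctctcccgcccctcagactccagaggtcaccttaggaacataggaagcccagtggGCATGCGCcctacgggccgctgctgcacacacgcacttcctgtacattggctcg
Cox6a1, chr5:115348959-115349108, minus strand: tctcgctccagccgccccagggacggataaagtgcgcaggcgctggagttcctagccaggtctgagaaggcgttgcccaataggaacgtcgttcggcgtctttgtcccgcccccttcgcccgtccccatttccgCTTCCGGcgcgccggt
Cox6b1, chr7:30626115-30626264, minus strand: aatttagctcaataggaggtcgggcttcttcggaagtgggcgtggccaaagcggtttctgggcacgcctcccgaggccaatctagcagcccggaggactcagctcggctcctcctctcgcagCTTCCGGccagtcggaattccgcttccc
Uqcr11, chr10:80406822-80406971, minus strand: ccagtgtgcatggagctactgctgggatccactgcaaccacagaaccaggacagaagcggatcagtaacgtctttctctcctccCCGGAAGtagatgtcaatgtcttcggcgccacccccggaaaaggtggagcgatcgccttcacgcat
Cox6b2, chr7:4753095-4753244, minus strand: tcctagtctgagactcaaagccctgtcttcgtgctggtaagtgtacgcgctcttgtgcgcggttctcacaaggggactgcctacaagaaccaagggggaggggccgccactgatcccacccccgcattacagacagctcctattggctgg
Cox8b, chr7:140900447-140900596, minus strand: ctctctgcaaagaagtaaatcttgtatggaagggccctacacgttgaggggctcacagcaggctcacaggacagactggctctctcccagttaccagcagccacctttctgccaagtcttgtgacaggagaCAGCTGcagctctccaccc

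The subunit genes as a whole lay close to 0. Of the 117 probe sets, 60 were higher and 57 lower in the Mll1 cKO array (48.7% lower), with a median difference of 0.01 and a range from -0.87 to 1.83. The sign of this median turned under renewed quantile normalization of the deposited values, to -0.0025, so the sign of the median was not settled. Over 2-fold, 2 members were higher (1.71%), beside 1.18% of all named probe sets, and 0 were lower, beside 0.101%. At the smaller threshold of 1.2-fold, 10 members (8.55%) were higher beside 16.3% of all named probe sets, and 19 (16.2%) were lower beside 22.0%. The comparison for lower members depended on the scaling, since with the lowess trend removed 16.2% of members were lower beside 13.4% of all named probe sets, and under quantile normalization 16.2% beside 16.7%. The share of higher members was below that of all named probe sets under each scaling, at 9.40% beside 18.1% with the trend removed and 7.69% beside 15.5% under quantile normalization. The nearest members to the 2-fold threshold were Cox8b, just above it at a log2 difference of 1.03, and Ndufs4, below it at -0.87.

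The split by direction was less even among strongly expressed members. Among the 82 member probe sets with a mean log2 signal over 9, 3 (3.66%) were over 1.2-fold higher, beside 17.2% of the 3869 named probe sets with such signals. In the other direction 16 (19.5%) were over 1.2-fold lower, beside 12.5%. By any amount 42 (51.2%) were lower, beside 46.5%, and the median difference was -0.01, against 0.02 for all named probe sets of that range. When all differences were centred on the median of the named probe sets, 7 of the 82 (8.54%) were over 1.2-fold higher and 14 (17.1%) lower, beside 22.2% and 8.40% of the named probe sets of that range. Among all 117 members the centred counts were 16 higher and 16 lower (13.7% each), beside 19.8% and 16.2% of all named probe sets. At the other end, 11 member probe sets had a mean signal of 7 or less, and 6 of these belong to tissue isoforms of complex IV. The deposited table carries no detection call, so whether such weak signals lie above background is not known. A probe set can also bind transcripts of processed gene copies, which are frequent for these genes, and this was not tested.

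**Figure D1:**
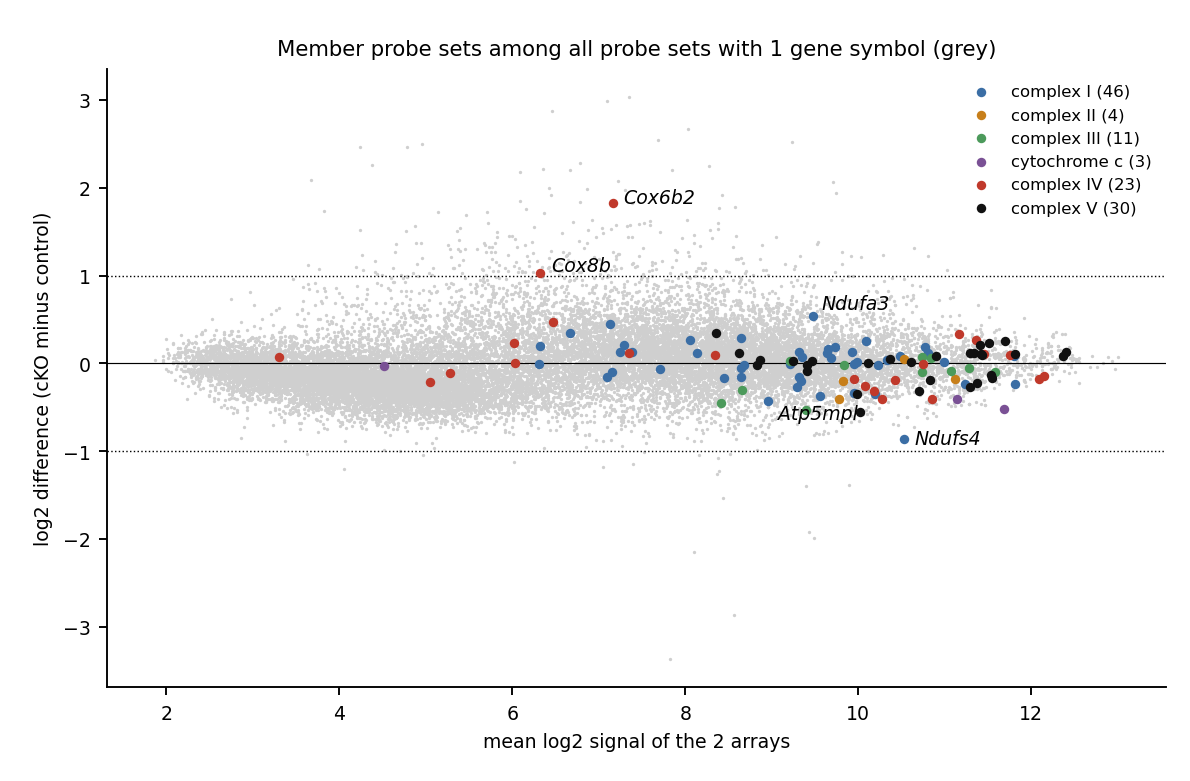
The log2 difference (Mll1 cKO minus control) of each probe set with 1 gene symbol is plotted against its mean log2 signal over the 2 arrays. Grey points are the other named probe sets and coloured points the 117 members by complex, with numbers of probe sets in brackets; dotted lines mark 2-fold. Cox6b2 and Cox8b lie above the upper line at weak to moderate signals, and Ndufs4 is the lowest member.

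Complex I, which oxidizes NADH, had no member over 2-fold in either direction. It was represented by 46 probe sets of 41 genes, of which 25 probe sets were higher and 21 lower, with a median of 0.03. With centred differences 15 probe sets were lower. The lowest of all 90 members belongs to this complex. Ndufs4, an accessory subunit that joins the NADH-oxidizing module to the rest of the peripheral arm, went from a log2 signal of 10.96 in the control culture to 10.09 in the Mll1 cKO culture, which is 1.82-fold lower. No other complex I gene was as low.

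The genes of the NADH-oxidizing module were mostly near 0 apart from Ndufs4. Of 8 genes 2 were higher and 6 lower, with a median of -0.02, but centring turned this to 5 higher and 3 lower. Ndufs1, the large iron-sulfur subunit of this module, went from 9.43 to 9.16, a difference of -0.27. The flavoprotein Ndufv1, which holds the site of NADH oxidation, had signals of 10.23 and 10.21 (-0.02, with a positive sign after centring), and its partner Ndufv2 had 10.98 and 11.00. Ndufv1 and Ndufv2 therefore did not share the difference of Ndufs4, whereas Ndufs1 was lower under every scaling, though by less than Ndufs4. Ndufv3, a small accessory subunit, went from 7.92 to 8.19 (0.26).

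The quinone-reducing module passes electrons to ubiquinone and had 4 genes here, 2 higher and 2 lower. Ndufs3, a core subunit, went from 10.25 to 9.90 (-0.35, with both of its probe sets lower). Ndufs7 and Ndufs8, which carry the last iron-sulfur clusters, had differences of 0.08 each. Core subunits of this one module thus lay on both sides of 0.

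The accessory subunits of the membrane arm, around the proton pumps, were more often higher than lower. Of 18 genes 12 were higher and 6 lower, with a median of 0.12 that was 0.05 under quantile normalization. Over all 19938 named genes 8298 were higher and 11091 lower. Among the 3298 named genes with a mean signal over 9, 1829 were higher and 1463 lower. Ndufa3 had the highest difference in the complex, from 9.21 to 9.74 (1.45-fold higher), and Ndufb3 followed, from 6.91 to 7.35 (1.36-fold higher). Ndufb2, at the weaker signals of 6.49 and 6.84, had a difference of 0.35. Ndufa11 ran the other way, from 9.46 to 9.05 (1.32-fold lower), and both of its probe sets were lower. Ndufa7, an accessory subunit outside these modules, went from 8.50 to 8.78 (0.28). The 7 assembly factors named Ndufaf, which build the complex but are not part of it, had 4 members higher and 3 lower, with differences from -0.16 to 0.20. Beside them, 11 assembly factors of complex I with other names had 8 higher and 3 lower and a median of 0.08, from Acad9 (-0.12) to Dmac2 (0.28).

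Complex II, succinate dehydrogenase, also belongs to the tricarboxylic acid cycle. It has 4 subunit genes, each with 1 probe set, of which 3 were lower. The median of -0.19 kept its sign under all scalings used. Sdhb, the iron-sulfur subunit, went from 9.98 to 9.58, which is 1.32-fold lower. Sdha, the flavoprotein that oxidizes succinate, went from 11.21 to 11.02 (-0.18), and Sdhd, a membrane anchor, from 9.93 to 9.72 (-0.20). The other membrane anchor, Sdhc, had signals of 10.51 and 10.56 (0.05). Thus 3 of the 4 genes lay at -0.18 or below while the fourth lay slightly above 0. The 19 measured genes listed for the tricarboxylic acid cycle outside complex II had 5 higher and 14 lower, with a median of -0.10. Over all 19938 named genes 11091 were lower. The list is wider than the cycle, as it also holds genes of the pyruvate dehydrogenase complex, Pcx and Mdh1. Idh3a, the catalytic subunit of isocitrate dehydrogenase, was the lowest of them, from 11.14 to 10.74 (-0.40), and Pdhx, which binds a subunit of the pyruvate dehydrogenase complex, was the highest at a mean signal over 7, at 0.06.

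Complex III, which hands electrons from ubiquinol to cytochrome c, had 3 probe sets higher and 8 lower (8 genes, 5 of them lower), with a median over probe sets of -0.08, and with centred differences 4 of the genes were lower. Its catalytic iron-sulfur protein Uqcrfs1 had the lowest difference, from 8.64 to 8.19, which is 1.36-fold lower. Uqcr11, a small subunit, went from 9.24 to 8.81 as the mean of its probe sets, whose differences were -0.53 and -0.31. The other genes were near 0. The core proteins Uqcrc2 and Uqcrc1 had differences of -0.09 and 0.08, and the small subunits Uqcrh and Uqcr10 had 0.06 and 0.03, the last of these turning to -0.0007 under quantile normalization. Cyc1, the heme protein of complex III, whose name lies outside the rule, went from 10.39 to 10.15 (-0.24), so both measured subunits that carry electrons to cytochrome c were lower. The 10 measured assembly factors of complexes II and III had 6 higher and 3 lower with a median of 0.05, from Sdhaf3 (-0.10) to Ttc19, which assists complex III (0.21), among those with a mean signal over 7.

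Cytochrome c carries electrons from complex III to complex IV. Its somatic gene Cycs has 3 probe sets, and all were lower in the Mll1 cKO array in the deposited values. The first went from 11.34 to 10.94 (-0.41) and the second from 11.94 to 11.43 (-0.52). The third had the weak signals of 4.53 and 4.50 (-0.03). Its sign turned under the other scalings, to 0.03 centred, 0.17 with the lowess trend removed and 0.14 under quantile normalization. The mean of -0.32 thus joins probe sets that disagree. Probe set numbers rose with chromosome for Sdhb (chr4, 10509858), Cox6a1 (chr5, 10532993) and Cox6b2 (chr7, 10559649). Cycs lies on chr6, and only its weak probe set (10544687) has a number between those of Cox6a1 and Cox6b2. By this order the weak probe set lies at the Cycs gene, and the strong ones (10462136 and 10528170) do not. The lower mean thus rests on probe sets numbered elsewhere, and what they bind was not tested. Cyct, the testis form, was listed at 2.98 in both arrays.

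**Figure D2:**
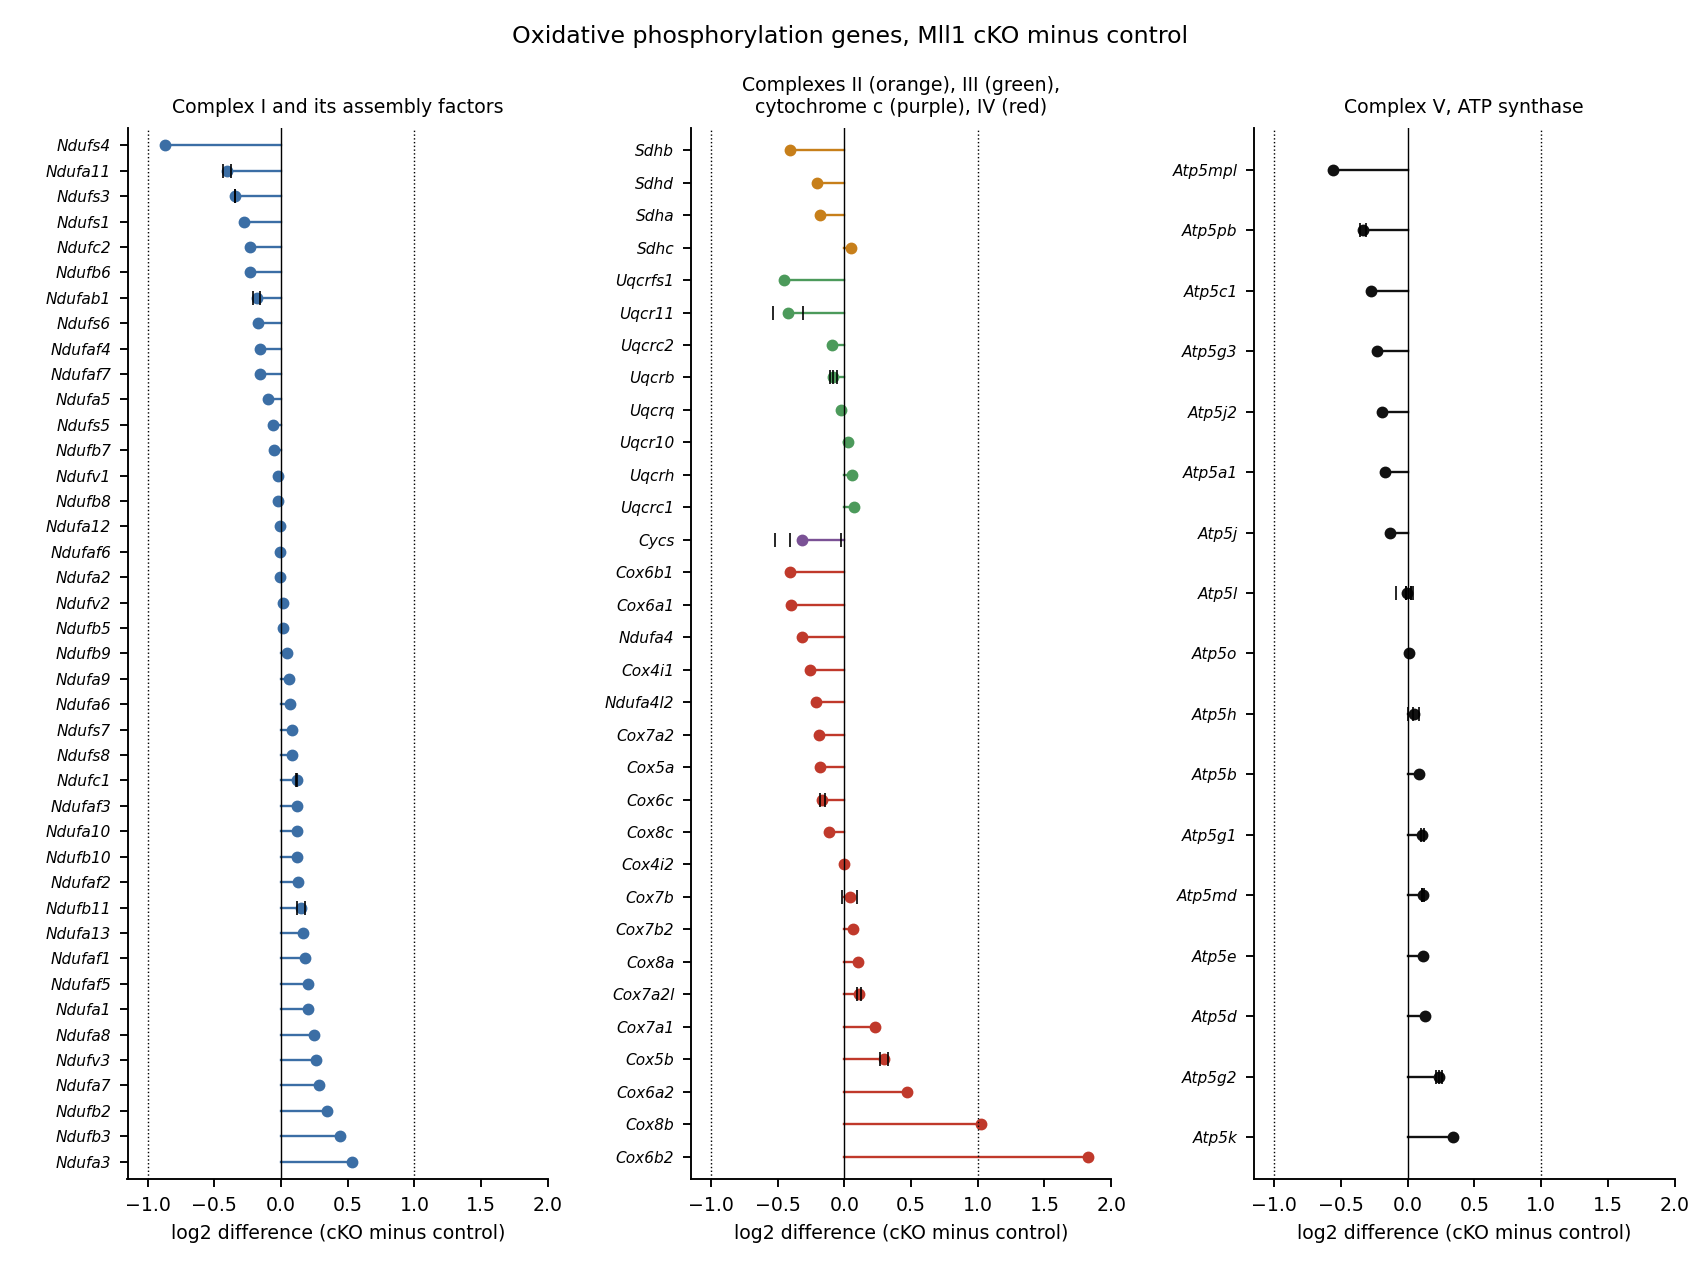
The log2 difference (Mll1 cKO minus control) of each of the 90 genes is drawn as a point, as the mean of its probe sets, and black ticks give the single probe sets where a gene has several. Dotted lines mark 2-fold. In complex IV (red) the tissue isoforms Cox6b2, Cox8b and Cox6a2 lie at the high end and Cox6b1 and Cox6a1 at the low end, whereas complexes I and V spread on both sides of 0 and 3 of 4 complex II genes are lower.

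Complex IV, cytochrome c oxidase, held both members over 2-fold. Its 23 probe sets of 19 genes had 12 higher and 11 lower and a median of 0.0005. The counts below differ by class, but class went with signal. Mean log2 signals were 9.95 or more for the widely expressed subunits and 7.16 or less for the tissue isoforms. Class and signal strength therefore cannot be told apart here. Over all 19938 named genes 8298 were higher and 11091 lower. The 10 widely expressed subunits, with Ndufa4 counted here because it is a subunit of this complex, had 3 higher and 7 lower and a median of -0.18. The 7 tissue isoforms had 6 higher and 1 lower and a median of 0.23. Cox4i2 and Cox8c, however, changed sign under at least 1 scaling, so 5 isoforms kept a positive difference under all of them.

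Cox6b2, known as the testis form of the subunit that bridges the monomers of the complex, had the highest difference of all members. Its log2 signal went from 6.25 in the control culture to 8.08 in the Mll1 cKO culture, which is 3.55-fold higher. Cox6b1, the widely expressed form, ran in the opposite direction, from 11.05 to 10.64 (1.33-fold lower). Between these paralogs the differences were therefore 2.24 apart. The printed upstream window of Cox6b1 holds the ETS letters and that of Cox6b2 none of the letters searched. Cox6b1 was printed because it had a motif and a lower difference, so this contrast follows from the choice. A link between the letters and the differences was not tested.

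The heart and skeletal muscle isoforms were all higher. Cox8b, the muscle form of the smallest subunit, went from 5.81 to 6.84 (2.04-fold higher), a log2 difference of 1.03 that was 0.99 under quantile normalization and then no longer over 2-fold. Cox6a2, the muscle form of a regulatory subunit, went from 6.23 to 6.71 (1.39-fold higher). Cox7a1, a muscle form of a subunit linked to dimers and supercomplexes, went from 5.91 to 6.14 (0.23). Of the widely expressed counterparts, 1 was slightly higher and the others were lower. Cox8a had 11.40 and 11.51 (0.11), Cox6a1 had 10.47 and 10.07 (1.32-fold lower), and Cox7a2 had 10.52 and 10.33 (-0.19). The difference of the muscle form exceeded that of the widely expressed form by 0.92 for Cox8b, 0.88 for Cox6a2 and 0.42 for Cox7a1. The muscle forms had much weaker signals, so these gaps can depend on the scaling. With the lowess trend removed Cox8b and Cox8a had 1.06 and 0.11. Likewise Cox6a2 and Cox6a1 had 0.49 and -0.41, and Cox7a1 and Cox7a2 had 0.31 and -0.19.

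The remaining isoforms moved little. Cox4i2, the lung form of subunit 4, was listed at 6.03 in both arrays, whereas Cox4i1 went from 10.20 to 9.95 (-0.25). The testis forms Cox7b2 and Cox8c had the weak signals of 3.27 and 3.34, and of 5.33 and 5.22, in the order control and Mll1 cKO, and the sign of Cox8c turned with the lowess trend removed and with quantile normalization. The widely expressed Cox7b had a difference of 0.04. Among the other widely expressed subunits, Ndufa4 was lower (10.34 and 10.03, -0.32), as were Cox5a (-0.18) and Cox6c (-0.16), whereas Cox5b, which binds zinc, was higher in both of its probe sets (mean from 11.11 to 11.41, 1.23-fold). Ndufa4l2, a hypoxia-responsive relative of Ndufa4, had 5.16 and 4.95 (-0.21). Cox7a2l, which takes part in supercomplexes and is not a subunit of the isolated complex, had a difference of 0.11.

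**Figure D3:**
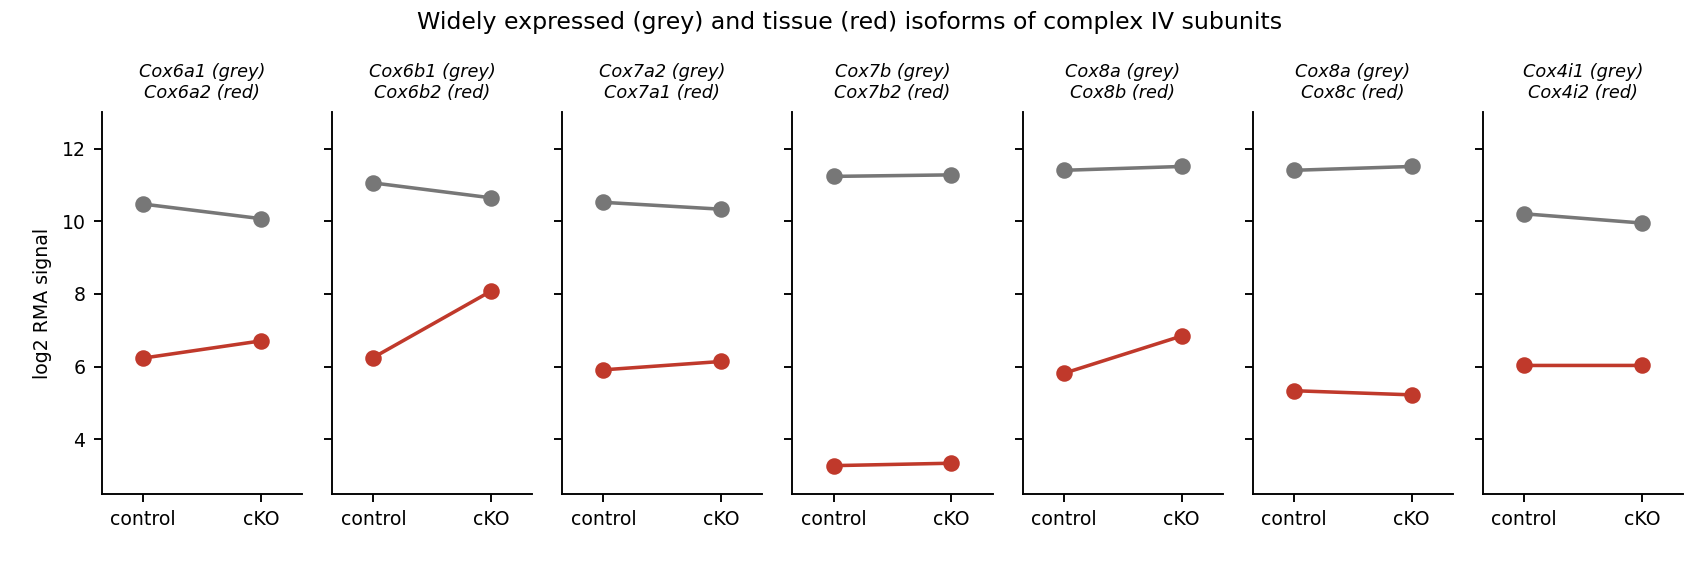
The log2 RMA signal in the control and the Mll1 cKO array is drawn for each widely expressed subunit of complex IV (grey) and its tissue isoform (red). Only slopes can be compared, since the height of a line depends on the probes of each gene. Lines of Cox6a2, Cox6b2, Cox7a1 and Cox8b slope upward, those of Cox6a1, Cox6b1, Cox7a2 and Cox4i1 slope downward, and Cox8a and Cox7b are nearly flat.

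Assembly factors of complex IV did not follow either class. Of 21 measured genes 11 were higher and 9 lower, with a median of 0.09. Cox19, a copper-related factor, had the highest difference, from 6.77 to 7.43 (0.65), and Taco1, a translational activator of a mitochondrially encoded subunit, the lowest, from 7.62 to 7.32 (-0.30).

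Complex V, the ATP synthase, had 30 probe sets of 17 genes, of which 19 probe sets were higher and 11 lower, with a median of 0.03, while quantile normalization gave 15 higher and 15 lower. Its catalytic F1 head was divided. The catalytic subunit Atp5b had signals of 12.33 and 12.41 (0.08), whereas the partner subunit Atp5a1 went from 11.63 to 11.46 (-0.17) and the central rotor subunit Atp5c1 from 11.43 to 11.16 (-0.27). The small rotor subunits Atp5d and Atp5e had differences of 0.13 and 0.11. In the peripheral stalk, which holds the head in place, Atp5pb was lower in both of its probe sets, with a mean from 10.51 to 10.17 (1.26-fold lower).

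The c subunit, the proton-carrying ring, is encoded by 3 genes whose mature proteins are the same. Atp5g2 was higher in all 3 of its probe sets, which had differences from 0.21 to 0.26, and Atp5g1 had a mean difference of 0.11. Atp5g3 ran the other way, from 11.49 to 11.26 (-0.23). The copies of this subunit therefore did not share a direction. Among the small membrane subunits Atp5mpl, a small proteolipid, had the lowest difference of the complex, from 10.30 to 9.74 (1.47-fold lower), and Atp5k, the e subunit, had the highest, from 8.18 to 8.52 (1.27-fold higher). Of 5 factors for assembly and regulation of the ATP synthase, Atpaf2, a chaperone of the F1 head, was the highest, from 9.09 to 9.62 (0.53). Fmc1 was the lowest with a mean signal over 7, at -0.27, and the inhibitor Atpif1 had 0.07.

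The genes classed as core came from complexes I, II, III and V, and none from complex IV. They were catalytic subunits, the complex II anchors, the c ring and the F1 head with its central stalk, which includes Atp5d and Atp5e. These 19 core genes had 9 higher and 10 lower and a median of -0.02, or 10 higher and 9 lower after centring. Of these core genes 0 were over 1.2-fold higher and 5 over 1.2-fold lower, beside 9 and 14 of all 90 member genes. Over all 19938 named genes the counts were 3307 and 4337, and over named probe sets the shares were 16.3% and 22.0%. With centred differences Ndufs1 (-0.22) and Atp5c1 (-0.22) were within 1.2-fold, and Atp5g2 (0.29) was over 1.2-fold higher. The core counts thus depended on the scaling. Subunits with several gene symbols on 1 probe set, which the rule leaves out, were near 0 or higher, with 0.05 to 0.06 for the 3 probe sets of Cox7c, 0.36 and 0.37 for the probe sets of Ndufb4, and 0.32 for a probe set shared by Ndufs5 and a pseudogene. The subunits encoded by the mitochondrial genome were not analysed here, as none of the 13 had a named probe set. In members with and without a motif, the median difference was -0.01 with and 0.05 without the NRF1 letters, -0.03 and 0.06 for ETS, -0.08 and 0.05 for YY1, and 0.10 and 0.03 for the E-box. These medians are given as a description, with no test.

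The regulators of mitochondrial gene expression were measured on the same arrays. Of 21 such genes 8 were higher and 13 lower, with a median of -0.06. Ppargc1a, the coactivator PGC-1α, had signals of 6.70 and 7.08 (0.38), and Esrra, a nuclear receptor that acts with it, went from 7.57 to 7.18 (-0.39), the lowest of the list. Nrf1 had 7.79 and 7.63 (-0.16), Gabpa 9.11 and 9.03, and Yy1 10.11 and 10.10. Sirt1, a deacetylase that acts on PGC-1α, was the highest with a mean signal over 7, at 0.23. Below that signal, Prkaa2 went from 6.42 to 6.97 (0.55), the highest of the list. No regulator was over 2-fold in either direction.

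Markers of cell state were looked at beside the subunits, and whether they are linked to the isoforms of complex IV was not tested. Of 9 markers of differentiating muscle 8 were higher, with a median of 0.94, and the sum of their linear signals went from 3656 to 7210. Of these, Myl1, Tnni1, Casq2 and Mymk, genes of contraction, calcium storage and fusion, were over 2-fold higher, whereas the muscle creatine kinase Ckm had 5.87 and 5.76. Myog (myogenin) had 7.30 and 7.94 (0.64). The study described its mRNA level as unchanged, and drew also on quantitative PCR of independent experiments, in which the difference was smaller than on the array. All 8 S phase genes, such as Mcm6 and Pcna, were lower, with a median of -0.52, and their summed signal went from 10702 to 7568. In bulk RNA, fewer cells of a type cannot be told apart from less RNA per cell, and the part of these shifts in the differences of the subunits was not tested. Markers of other cell types had mostly weak signals. The 6 fibroblast markers summed to 381 and 303, with 1 higher and 5 lower and Col3a1 at 8.12 and 7.67, and the 4 endothelial markers summed to 93.3 and 82.7, with all lower. The 4 adipocyte markers summed to 111 and 85.1, with 1 higher and 3 lower, and the 4 immune markers to 109 and 215, where Cd68, a lysosomal protein, went from 6.08 to 7.47 and Ptprc, Itgam and Adgre1 had signals of at most 4.04. Their part in the results was not tested.

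**Figure D4:**
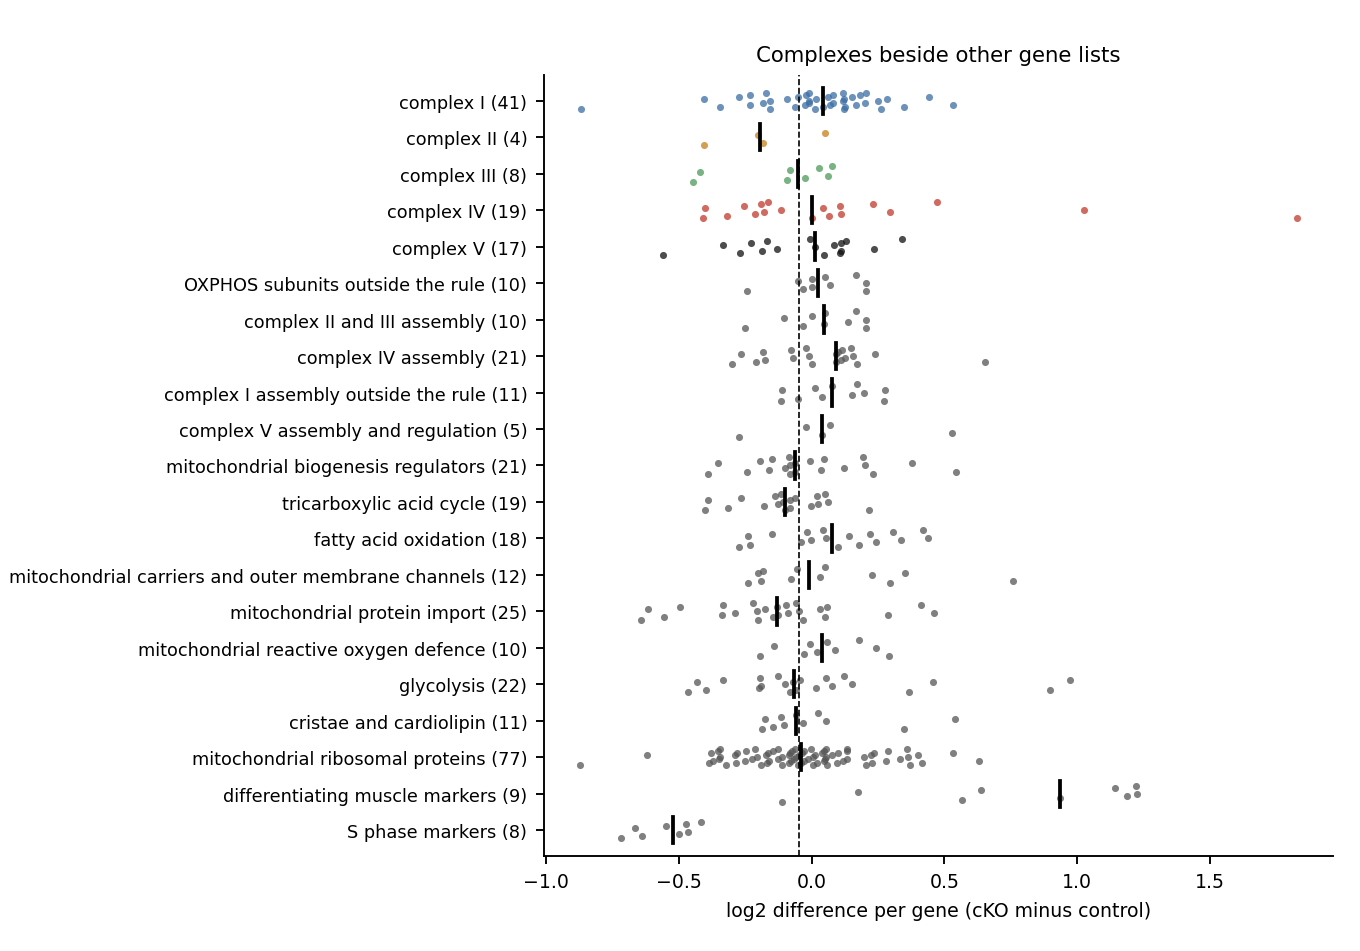
The log2 difference (Mll1 cKO minus control) of each gene is shown as a point for the complexes and for other gene lists, with the number of genes in brackets, black bars for medians and a dashed line for the median of all named genes. The complexes lie around 0 with medians from -0.19 (complex II) to 0.04 (complex I), whereas the markers of differentiating muscle (median 0.94) and of S phase (median -0.52) lie to the right and to the left.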

How the data were processed

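Total RNA of 2 cultures was hybridised to 1 Affymetrix MoGene 1.0 ST array each. The authors normalized the scans by RMA and deposited log2 signals of 35557 probe sets, without replicates or detection calls. For the RMA version and the genome build, nothing is stated in the sources used here. The 6613 probe sets in the run of lowest numbers were treated as control probe sets and left out. Of the other 28944, 21789 had 1 symbol in the platform annotation, 1621 had several and 5534 had none. Symbols were updated by gene number to RefSeq of GRCm38.p6, which also gave the promoter windows.

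Differences were taken as Mll1 cKO minus control on the log2 scale for each probe set, and a gene has the mean of its probe sets. A fold is 2 to the power of the size of a difference. Members, lists, markers and motifs were chosen with earlier results of these data known, and the E-box and the placing of Ndufa4 were varied after seeing the values. Named genes were, in each complex, the members over 1.5-fold, the 3 highest and the 3 lowest genes with a mean log2 signal over 7, all tissue isoforms of complex IV and their counterparts, Cox7a2l, Ndufa4, Ndufa4l2, the c subunit genes, Cycs and the core subunits, and for other lists the highest and lowest member with a mean signal over 7 and those over 2-fold. Further genes (such as Ndufb2, Ndufv3, Cox5a, Cox6c, Cyct, Atpif1, Hspd1, Pdk2, Mrps28, Gabpa, Yy1, Nrf1, Ppargc1a and the markers) were named outside this rule after their values were seen.

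Alternatives were centring on the median, removal of a lowess trend on mean signal (span 0.3), quantile normalization of the deposited values, the choice of probe sets and members, and thresholds of 1.5-fold and 1.2-fold. No test was possible. The calculations were tested on simulated data and were run with numpy 2.4.6, pandas 2.3.3 (in Python 3.11.15) and statsmodels 0.14.6. Plots were drawn with matplotlib 3.10.9.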

Additional observations from a re-analysis of the deposited data

How the results depend on the processing

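The medians of all members and of each complex and the counts of members were recomputed under 10 planned settings and 1 chosen after seeing the data, 68 values in all. Without replicates, a median was taken as moved if it differed by more than 0.0473, the pooled SD of differences between probe sets of 1 gene without Cycs, and a count if it differed by more than 1.5 times. By this measure 55 values stayed. The SD is a spread within the same 2 arrays and does not measure spread between replicates. With Cycs it was 0.0834, so the number of values that stayed depends on leaving Cycs out. Centring the differences on the median of the named probe sets moved the median of all members to 0.0587, and those of complexes I to V to 0.0826, -0.1408, -0.0314, 0.0524 and 0.0824, which follows from the constant subtracted. The median of complex IV became 0.0629 with the lowess trend removed, -0.0806 with a mean signal over 7, which leaves out most tissue isoforms, 0.0511 with probe sets of several symbols, and 0.0666 with Ndufa4 and Ndufa4l2 counted in complex I, the setting chosen after seeing the data. The number of members over 2-fold was 1 under quantile normalization, where Cox8b was no longer over the threshold, 1 with a mean signal over 7, where Cox8b was left out, and 29 at a threshold of 1.2-fold. Among single genes, 12 of 90 changed sign under a scaling or with the strongest probe set, and their differences were all 0.1139 or less in size. Differences of this size have no order here. The directions of Cox6b2, Cox8b, Ndufs4, Cycs, Cox6b1 and Sdhb held under all these settings. For Cycs this holds for the mean of its probe sets and not for the weak probe set, which by number lies at the gene. No paired analysis was possible because each condition has 1 array, and no array could be left out for the same reason. Signal over background is not known, which limits the weak isoforms most.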

Other observations

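Other mitochondrial and metabolic genes were read from the same arrays. Over all 19938 named genes 8298 were higher and 11091 lower in the Mll1 cKO array. Of 25 genes of mitochondrial protein import, 6 were higher and 19 lower, with a median log2 difference of -0.13. With centred differences 8 were higher and 17 lower, with a median of -0.08. Timm8a1, a chaperone of the intermembrane space, went from 8.12 to 7.48 (-0.64), and the chaperonin Hspd1 from 11.23 to 10.74 (-0.50), whereas Tomm34, a cytosolic cochaperone, went from 9.52 to 9.98 (0.46). The 77 mitochondrial ribosomal protein genes had 33 higher and 44 lower, with a median of -0.04 that centring turned to 0.01, from Mrpl12 (9.70 and 9.08, -0.62) among those with a mean signal over 7 to Mrpl38 (8.62 and 9.25, 0.63). Mrps28, at 7.40 and 6.53, had the lowest difference of this list. The 11 genes of cristae and cardiolipin had 4 higher and 7 lower, from Crls1, the cardiolipin synthase (-0.19), to Chchd10 (0.54).

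Fuel genes were divided. Of 18 genes of fatty acid oxidation 11 were higher and 7 lower, with a median of 0.08, from Etfa, an electron transfer flavoprotein (-0.27), to Eci2, an enoyl-CoA isomerase (0.44). Of 22 genes of glycolysis and its control 9 were higher and 13 lower, with a median of -0.07. Ldhb, the lactate dehydrogenase subunit typical of heart, went from 7.77 to 8.74 (0.97), and Pdk2, an inhibitor of pyruvate dehydrogenase, from 7.95 to 8.84 (0.90), whereas Pgk1, a glycolytic kinase, went from 11.69 to 11.22 (-0.47). Among 12 mitochondrial carriers and channels 6 were higher and 6 lower. The citrate carrier Slc25a1 had the highest difference, from 8.52 to 9.28 (0.76), and the adenine nucleotide carrier Slc25a5 had 11.86 and 11.66 (-0.20). The 10 genes of mitochondrial defence against reactive oxygen had 6 higher and 4 lower, from Prdx3 (-0.14) to Cat, the mainly peroxisomal catalase (0.29), at a mean signal over 7. None of these genes was over 2-fold.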
